A study of Mus musculus with 30 samples.

Results

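The 7 genes Mras, Soga3, Crtac1, Tenm1, Kif26b, St6gal1 and Pqlc1 were followed through nuclear RNA-seq of mouse embryonic stem cells (mESCs), out of 55401 genes counted. They were selected on measured values of the same experiment: each had been named as higher in cells with catalytically dead SRCAP (cdSRCAP), in cells treated with indole-3-acetic acid (IAA), or in both. The rule is a list of names with no threshold, so no members just inside or outside a cutoff exist. Their levels in wtSRCAP and cdSRCAP cells are therefore given as a description with no test, and the comparisons tested here are those in the SYAT time course, in sorted SYAT cells and in parental CGR8 cells. The list was drawn up with results of these data in view, so the counts below are not an independent draw of genes.

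SRCAP is the ATPase of a chromatin remodelling complex that swaps the histone dimer H2A-H2B in nucleosomes for the variant dimer H2A.Z-H2B. H2A.Z sits at the promoters and enhancers of active genes and of bivalent genes, whose promoters carry activating and repressive marks together. Adding IAA to a cell that holds the plant receptor OsTir1 leads to the degradation of any protein fused to an auxin-inducible degron, which removes the complex's ATPase within hours.

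CGR8 is a mouse ES cell line, and SYAT is a CGR8-derived line with YPet-AID fused to both copies of Srcap and OsTir1 delivered by lentivirus. SYAT controls were kept in auxinole, an inhibitor of OsTir1, and treated cells were given IAA at 500 µM and collected after 2 h, 4 h, 6 h and 8 h. For the cell cycle, SYAT cells that also carry an mCherry-MD reporter were sorted in early G1 (EG1) or late G1 (LG1), with control or 1 h of IAA. The wtSRCAP and cdSRCAP lines are SYAT cells, each from 1 clone, with a doxycycline-inducible SRCAP-mCherry transgene, either wild type or mutated in the ATPase domain. Both lines received 1 µg/mL doxycycline over 24 h, with or without 4 h of IAA, and were sorted for a similar mCherry signal, so the wtSRCAP controls hold endogenous and transgenic SRCAP together. CGR8 cells, which lack the degron, were compared with and without 4 h of IAA. All cells had been moved to medium with serum and LIF before the experiments. Each of the 15 conditions had 2 replicates, numbered in the labels, which makes 30 libraries in 4 count tables.

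Each library was counted in an exon column and an intron column per gene, the second used by the study as a measure of ongoing transcription. Exon columns summed to between 12236493 and 60214521 counts. Intron columns summed to 18652274 to 26851535 counts in the time course and 22775471 to 32872563 in EG1, against 4520810 to 7724200 in LG1, 3902509 to 7287893 in CGR8 and 2006573 to 5398261 in wtSRCAP and cdSRCAP cells. Genes of 1 exon should have no intron reads, yet of those with 20 or more exon counts 53.1% had intron counts in the time course and 44.7% in EG1, against 0.0959% in LG1, 0.0537% in CGR8 and 0.0935% in wtSRCAP and cdSRCAP cells. The first and second of these intron columns thus hold counts in genes without introns, and the source of these counts was not tested. Intron levels are for this reason compared only within the time course, within EG1, within LG1, within CGR8 or within the wtSRCAP and cdSRCAP table. The 8 ES cell markers summed to between 1513 and 4435 CPM (the usual scaling of counts to a common library size, here adjusted by the TMM method), while the 3 markers of 2-cell-like cells summed to at most 1.42. Srcap mRNA, which IAA does not target, was at 39.9 to 45.8 CPM in exons of the time course controls and 44.9 to 60.2 with IAA. It was at 50.2 to 60.0 in sorted cells and 21.3 to 24.2 in CGR8. In wtSRCAP cells it was at 48.9 to 52.0 in controls and 57.2 to 58.8 with IAA, and in cdSRCAP cells at 59.2 to 60.2 and 61.3 to 74.5. Counts in these lines may include reads of the SRCAP transgene, which was cloned from mouse cDNA.

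The 7 genes are long and spread over 7 chromosomes. Their median length was 135.6 kb, against 17.3 kb for 22028 protein-coding genes, and each was longer than at least 71.9% of them. These 22028 include genes not tested in introns, and length was not compared with the tested genes alone. In GRCm38, Mras (ENSMUSG00000032470.17, chromosome 9, 99385420 to 99437381, minus strand), which encodes a RAS-family GTPase that joins SHOC2 and protein phosphatase 1 in a complex acting on RAF kinases, overlaps no annotated gene. Soga3 (ENSMUSG00000038916.7, chromosome 10, 29143839 to 29199630, plus strand), a member of the small SOGA and MTCL family, overlaps in part Gm9996 on the opposite strand and Gm49353 on the same strand. Crtac1 (ENSMUSG00000042401.7, chromosome 19, 42283035 to 42431783, minus strand), a secreted protein of the extracellular matrix first described in cartilage, holds the pseudogene AC151978.1 and the antisense gene AC144792.1. Tenm1 (ENSMUSG00000016150.15, chromosome X, 42527866 to 43429126, minus strand) encodes a teneurin, a transmembrane adhesion protein that binds latrophilin receptors. It is the longest of the list at 901.3 kb, and it overlaps Sh2d1a and Gm24763 on the opposite strand and holds Gm23705, Gm14578 and Gm14587 on its own.

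Kif26b (ENSMUSG00000026494.12, chromosome 1, 178529125 to 178939200, plus strand) encodes an unconventional kinesin that acts downstream of WNT5A and ROR receptors, and holds Gm24405, Gm34176 and, antisense, Gm16564. St6gal1 (ENSMUSG00000022885.16, chromosome 16, 23224740 to 23360350, plus strand) encodes the Golgi enzyme that adds sialic acid to galactose on N-linked glycans, and overlaps in part BC106179 on the opposite strand. Pqlc1 (ENSMUSG00000034006.17, chromosome 18, 80253292 to 80292725, plus strand) encodes a membrane protein with PQ-loop repeats, the fold of lysosomal amino acid exporters, and overlaps no annotated gene. The library kit keeps strand, but the strand setting of the counting is not given in the sources used here, so reads of a gene and its antisense partner may share a count.

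The promoters of these genes belong to both classes that mammalian genes fall into, those dense in CpG dinucleotides and those poor in them. Windows of 300 bases, from 250 bases before to 50 after the start site, were read from RefSeq promoters of GRCm38.p6 for 6 of the 7 genes, with 9 start sites in all. The median of 32851 promoters held 7 CpG, with an observed over expected ratio of 0.38. Crtac1 held 41 at the start nearest the annotated gene start (ratio 0.94), Kif26b 38 (1.09) and Mras 36 (0.95), each above at least 93.8% of promoters. Soga3 held 8, the 3 starts of St6gal1 held 7, 10 and 6, and the Tenm1 start, which lies 154342 bases inside the annotated gene, held 0.

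Other promoter words, searched on both strands, did not mark the list as one kind. TATAAA was found in the windows of Crtac1 (the start with 41 CpG) and Tenm1, and in 13.6% of all promoters. CCAAT was in the same Crtac1 window, in those of Kif26b and Mras and in all 3 of St6gal1, and in 37.4% of all promoters. GGGCGG was in the same Crtac1 window and in Kif26b, Mras and the first St6gal1 window (35.7% of all). CACGTG, found in 7.2% of all promoters, was in none of the 9. The other Crtac1 window, with 31 CpG, held none of these words. A match is a description of the letters and not a bound site.

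The windows that show both classes are printed below on the strand of the gene, with each CpG in capitals.
Mras, chr9:99436663-99436962, minus strand: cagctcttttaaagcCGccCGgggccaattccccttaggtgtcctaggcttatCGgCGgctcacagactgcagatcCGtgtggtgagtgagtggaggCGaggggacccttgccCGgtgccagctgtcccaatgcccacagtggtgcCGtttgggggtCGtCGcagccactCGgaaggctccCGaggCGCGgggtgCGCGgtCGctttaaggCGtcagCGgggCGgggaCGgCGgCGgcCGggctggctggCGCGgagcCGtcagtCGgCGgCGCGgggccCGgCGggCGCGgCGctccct
Crtac1, chr19:42431739-42432038, minus strand: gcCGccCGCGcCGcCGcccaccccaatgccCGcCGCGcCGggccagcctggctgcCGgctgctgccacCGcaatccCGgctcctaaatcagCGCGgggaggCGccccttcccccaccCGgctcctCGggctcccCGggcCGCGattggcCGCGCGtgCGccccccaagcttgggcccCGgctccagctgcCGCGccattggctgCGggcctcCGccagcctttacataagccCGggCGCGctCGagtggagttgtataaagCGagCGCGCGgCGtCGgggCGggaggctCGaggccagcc
Kif26b, chr1:178528875-178529174, plus strand: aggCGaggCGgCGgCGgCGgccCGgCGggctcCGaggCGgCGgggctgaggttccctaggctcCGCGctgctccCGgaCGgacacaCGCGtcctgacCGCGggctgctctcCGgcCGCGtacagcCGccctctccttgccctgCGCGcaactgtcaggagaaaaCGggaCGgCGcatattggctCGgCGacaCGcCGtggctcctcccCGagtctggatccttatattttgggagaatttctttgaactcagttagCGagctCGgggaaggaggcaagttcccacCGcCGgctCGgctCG
Soga3, chr10:29143746-29144045, plus strand: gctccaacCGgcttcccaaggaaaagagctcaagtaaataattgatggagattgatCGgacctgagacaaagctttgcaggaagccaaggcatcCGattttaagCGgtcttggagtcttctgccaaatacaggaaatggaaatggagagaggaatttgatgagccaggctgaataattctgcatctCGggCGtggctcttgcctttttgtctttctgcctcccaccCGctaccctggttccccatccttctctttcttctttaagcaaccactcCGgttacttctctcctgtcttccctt
Tenm1, chrX:43274735-43275034, minus strand: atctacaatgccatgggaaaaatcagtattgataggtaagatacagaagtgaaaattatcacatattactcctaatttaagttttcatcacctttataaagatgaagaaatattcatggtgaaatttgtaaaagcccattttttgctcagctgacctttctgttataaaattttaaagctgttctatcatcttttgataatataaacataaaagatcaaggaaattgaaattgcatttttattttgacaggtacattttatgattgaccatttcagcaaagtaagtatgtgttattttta

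On average, all 7 genes were lowest in wtSRCAP controls and highest in IAA-treated cdSRCAP cells in the intron columns. From the first to the second of these conditions, the log2 fold change had a median of 2.08 over the 7 genes, against -0.02 over 12702 genes fitted, and ranged from 1.35 in St6gal1 to 2.31 in Mras. These contrasts chose the genes, so the values describe the choice. In bulk RNA, more cells that transcribe a gene and more transcripts per cell cannot be told apart.

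**Figure D1:**
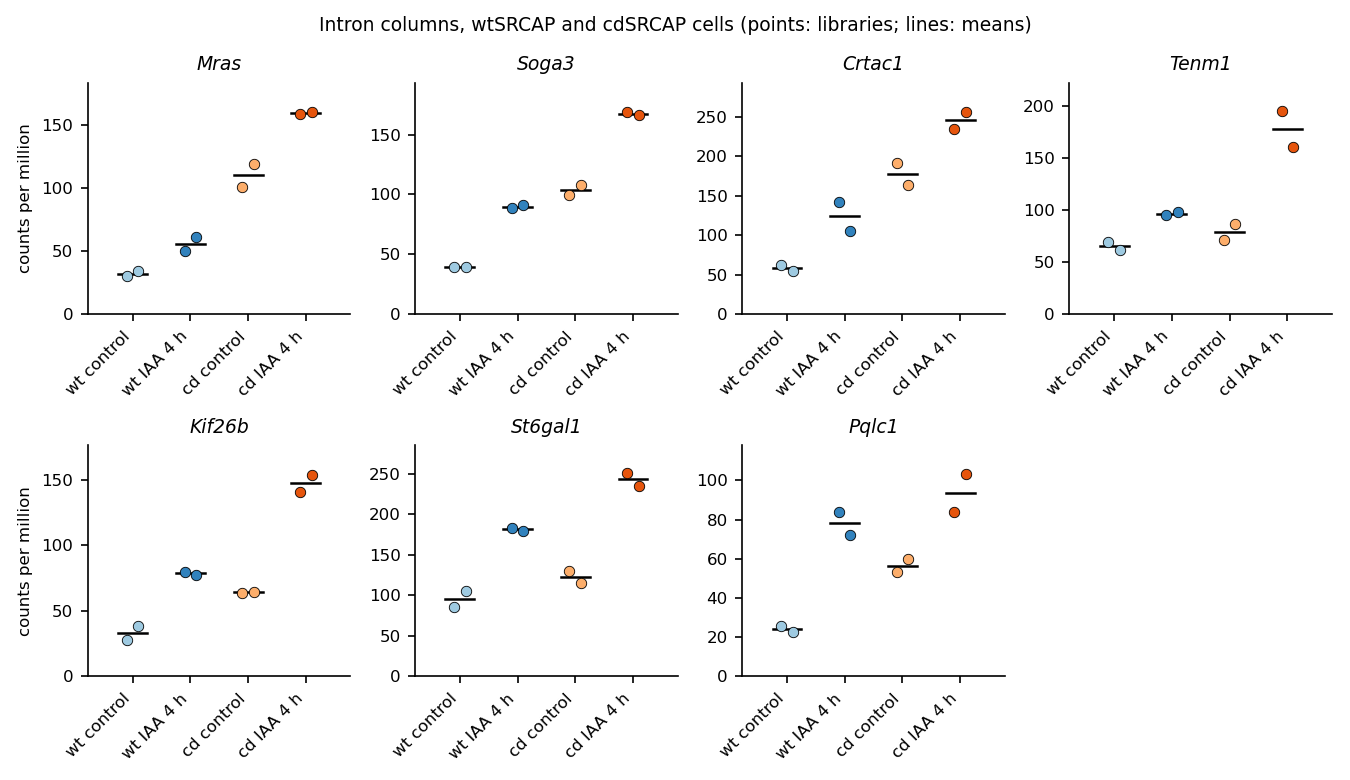
Intron CPM (linear axes from 0) of the 7 genes in wtSRCAP (wt) and cdSRCAP (cd) cells with control or 4 h of IAA, 1 point per library and a line at the mean of 2. In every panel both wt control points are the lowest and both cd IAA points are above the cd controls, and of the 7 genes only in Pqlc1 does the cd IAA group overlap the wt IAA group.

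Mras, Crtac1 and Soga3 were the 3 genes that differed most between the controls of the lines. Mras introns were at 30.04 and 34.5 CPM in wtSRCAP controls, 49.9 and 61.5 after IAA, 101 and 119 in cdSRCAP controls, and 159 and 160.5 in cdSRCAP cells after IAA. Both cdSRCAP controls were thus above both IAA-treated wtSRCAP libraries. Crtac1 had 61.8 and 54.1 CPM in wtSRCAP controls, 142 and 106 after IAA, 192 and 164 in cdSRCAP controls and 235 and 256 after IAA. Soga3 had 39.0 and 39.3, then 88.7 and 90.8 with IAA in wtSRCAP cells, and 99.6 and 108 in cdSRCAP controls, then 169 and 166 with IAA. For both genes the 4 conditions did not overlap and stood in the same order as for Mras. Between the controls, cdSRCAP minus wtSRCAP on the log2 scale was 1.77 for Mras, 1.62 for Crtac1 and 1.40 for Soga3.

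Pqlc1 and Kif26b also differed between the controls, but less than with IAA in wtSRCAP cells. Pqlc1 had 25.8 and 22.7 CPM in wtSRCAP controls and 83.9 and 72.2 after IAA, a log2 fold change of 1.68, and 53.1 and 59.9 in cdSRCAP controls against 83.8 and 103 after IAA (0.73). Its IAA-treated wtSRCAP and cdSRCAP libraries overlapped. Kif26b had 27.8 and 38.0 CPM in wtSRCAP controls, 79.7 and 77.5 after IAA, 63.9 and 64.4 in cdSRCAP controls, and 140.5 and 154 after IAA. The log2 fold change with IAA was 1.25 in wtSRCAP and 1.2 in cdSRCAP cells.

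Tenm1 and St6gal1 differed least of the 7 between the controls, by 0.27 and 0.36 on the log2 scale, and more with IAA in cdSRCAP cells, by 1.17 and 0.99. Tenm1 had 69.1 and 61.8 CPM in wtSRCAP controls, 95.1 and 98.5 after IAA, 71.5 and 86.2 in cdSRCAP controls, and 195 and 161 after IAA. St6gal1 had 85.6 and 105 CPM, then 183 and 179 with IAA, in wtSRCAP cells, and 130 and 115, then 251 and 235 with IAA, in cdSRCAP cells. For both genes the cdSRCAP controls were below the IAA-treated wtSRCAP cells, the reverse of Mras.

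Across the 7 genes the median log2 fold change with IAA was 1.09 in wtSRCAP cells (0.57 in Tenm1 to 1.68 in Pqlc1) and 0.73 in cdSRCAP cells (0.46 in Crtac1 to 1.2 in Kif26b). So the label of genes raised without catalysis covers levels that were also higher after IAA in cells holding wild-type SRCAP. Between the lines, the median was 1.22 among controls and 0.90 among IAA-treated cells. Each line is from 1 clone, so mutation and clone cannot be told apart in any difference between the lines. Exon columns gave smaller values, with a median of 1.39 from wtSRCAP control to IAA-treated cdSRCAP cells and of 0.42 between the IAA-treated lines. Tenm1 exons were thinly covered, at 1.25 to 5.2 CPM. Their log2 fold change with IAA was -0.36 (SE 0.51) in wtSRCAP cells, from 1.43 and 1.91 CPM to 1.37 and 1.25, and 0.07 (SE 0.47) in cdSRCAP cells. Between the lines it was 1.12 (SE 0.49) among controls and 1.55 (SE 0.50) among IAA-treated cells.

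Per kb of intron, the levels in wtSRCAP controls were 0.759 ± 0.00371 CPM for Soga3, 0.730 ± 0.106 for St6gal1, 0.728 ± 0.0662 for Pqlc1, 0.689 ± 0.0666 for Mras, 0.397 ± 0.0371 for Crtac1, 0.0832 ± 0.0183 for Kif26b and 0.0740 ± 0.00586 for Tenm1 (SD, n = 2). Soga3, St6gal1, Pqlc1 and Mras lay close together, as did Kif26b and Tenm1, and differences between genes were not tested. In IAA-treated cdSRCAP cells Mras was at 3.41 ± 0.0207 CPM per kb and Tenm1 again the lowest at 0.202 ± 0.0276.

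Markers of some cell types were not level across this table. The 8 ES cell markers summed to 2470 to 2892 CPM in wtSRCAP controls and 3281 to 3391 after IAA. In cdSRCAP cells they summed to 2894 to 3893 and 3686 to 4404. The 5 primitive endoderm markers overlapped between control and IAA, at 4.79 to 6.31 and 4.10 to 6.10 CPM in wtSRCAP cells. Their sums in cdSRCAP cells were 3.84 to 7.47 and 5.23 to 5.965. The 4 trophoblast markers summed to 5.72 to 8.55 CPM in the 4 controls and 11.2 to 22.4 in the 4 IAA-treated libraries, carried by Eomes and Gata3. The 5 fibroblast markers summed to 5.12 to 5.40 CPM in wtSRCAP controls, 12.1 to 12.3 in IAA-treated wtSRCAP cells and 6.48 to 8.73 in cdSRCAP cells, and Dcn, one of them, was at 0 in 4 of 8 libraries. The 3 neural markers summed to 37.3 to 80.6 CPM in wtSRCAP controls, 60.7 to 84.5 in IAA-treated wtSRCAP cells, 47.3 to 94.4 in cdSRCAP controls and 73.6 to 107.2 in IAA-treated cdSRCAP cells. Tubb3 carried most of this sum, while Pax6 was at 7.67 to 9.71 CPM and 9.84 to 12.5 in the controls of the lines, against 14.4 to 16.4 and 17.5 to 23.0 after IAA. Their part in the levels of the 7 genes was not tested.

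The time course asked how soon the genes respond once SRCAP is degraded, and the answer depended on the tool. The study's thresholds there were an adjusted p under 0.05 and a log2 fold change over 0.5. With edgeR no gene of the list passed them, although all 6 genes with intron counts (Tenm1 had none and was not tested) were higher than the controls on average at each time. In introns, edgeR's quasi-likelihood test called 0 of the 6 at 2, 4, 6 and 8 h. Few genes of any kind passed, 0% of 14719 tested as higher at 2 h, 0% at 4 h, 0.00679% at 6 h and 0% at 8 h. DESeq2 called 0 of the 6 at 2 h, 0 at 4 h, 2 at 6 h (Soga3 and Pqlc1) and 1 at 8 h (St6gal1), where it called 0.243%, 0.792%, 1.68% and 1.25% of all genes higher. At an unadjusted p under 0.05, edgeR gave 1 of 6 higher at 2 h, 3 at 4 h, 5 at 6 h and 4 at 8 h, where the background share of genes was 1.84%, 3.63%, 6.53% and 5.67%. The median log2 fold change of the 6 was 0.67, 0.91, 1.08 and 0.90, against medians of 0.01, 0.02, 0.01 and 0.03 over all genes tested. The 4 comparisons share the 2 control libraries, so their values are not independent of each other.

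**Figure D2:**
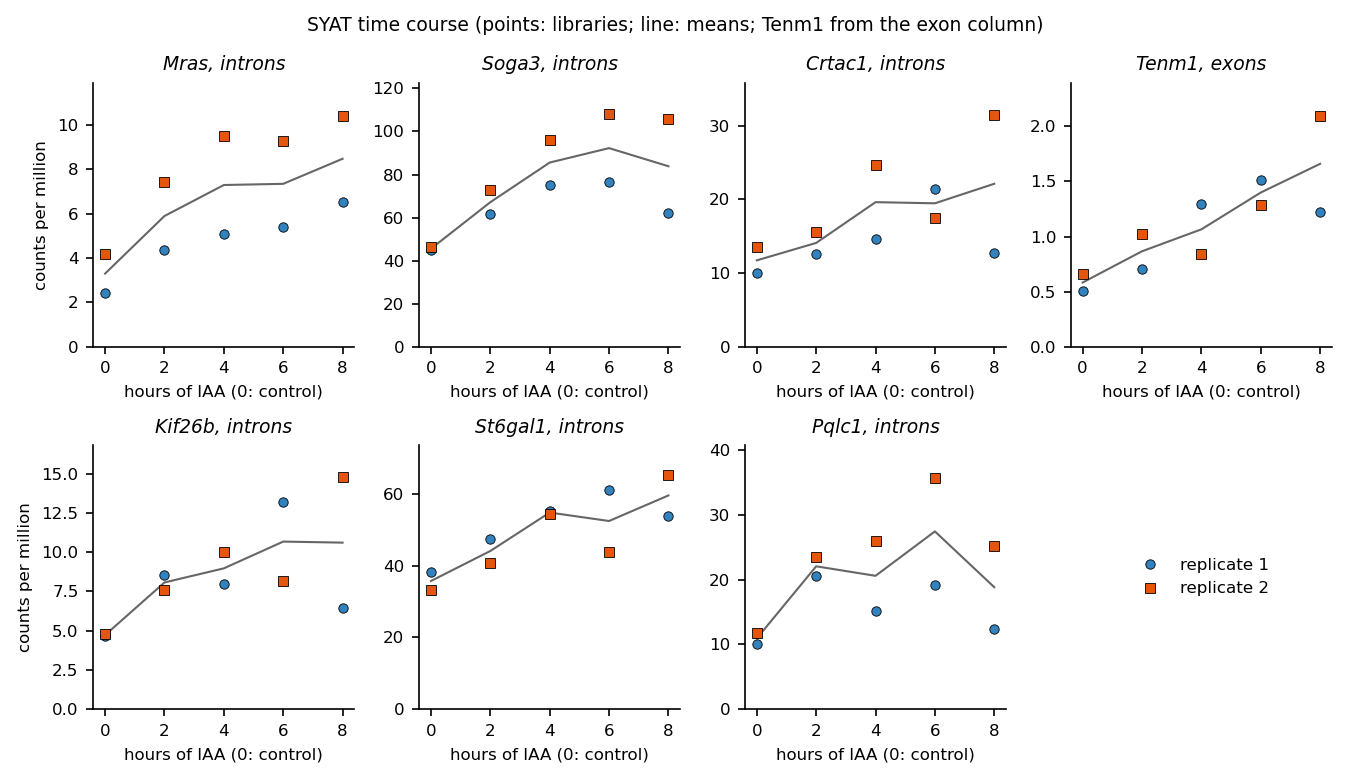
CPM against hours of IAA (0 is the auxinole control) in SYAT cells, 1 point per library, circles for replicate 1 and squares for replicate 2, and a line through the means of 2. Intron columns are plotted except for Tenm1, whose intron column was 0 throughout. Treated points lie above both controls in most panels. In Mras, Soga3 and Pqlc1 the squares are above the circles at every time.

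Among the 6 genes tested in introns, Mras had the largest log2 fold change at 4 and 8 h. Its introns were at 2.44 and 4.16 CPM in the controls, 4.35 and 7.43 at 2 h, 5.09 and 9.48 at 4 h, 5.39 and 9.29 at 6 h, and 6.53 and 10.4 at 8 h. Every treated library was above both controls, and the second replicate was the higher one in each condition. The log2 fold changes were 0.83 (SE 0.48), 1.14 (0.48), 1.15 (0.48) and 1.36 (0.48). The unadjusted p from edgeR was under 0.05 from 4 h on, and the lowest adjusted p was 0.29, at 8 h. Without replicate 2 of the treatment the value was 0.61 at 4 h and 0.70 at 6 h. DESeq2 with the replicate number as a block, a fit chosen after seeing the data, gave an adjusted p of 0.0071 at 4 h, 0.0032 at 6 h and 0.00023 at 8 h, against 0.12, 0.057 and 0.067 from edgeR with the block. Exons gave 0.95 at 6 h (adjusted p = 0.31) and 1.22 at 8 h (adjusted p = 0.25), with 1.77 and 2.56 CPM in the controls and 4.36 and 5.79 at 8 h.

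Soga3 differed from its controls at an unadjusted p under 0.05 from 4 h on. It had 44.98 and 46.1 intron CPM in the controls, 61.6 and 72.7 at 2 h, 74.9 and 96.2 at 4 h, 76.3 and 108 at 6 h, and 62.1 and 106 at 8 h. The controls lay close together and the treated pairs spread, with all 8 treated libraries above both controls. Log2 fold changes were 0.56 (SE 0.28), 0.91 (0.28), 1.02 (0.28) and 0.88 (0.28), and the lowest adjusted p was 0.18, at 6 h. The second replicate was the higher one in each condition. Without replicate 2 of the treatment the value was 0.70 at 4 h, 0.74 at 6 h and 0.46 at 8 h. In exons the values at 6 h were 57.4 and 91.3 CPM against 37.0 and 35.7, a log2 fold change of 1.03 (SE 0.23, adjusted p = 0.082).

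Pqlc1 was the one gene of the 6 with an unadjusted p under 0.05 at 2 h, 10.1 and 11.8 intron CPM in the controls against 20.6 and 23.5 at 2 h, a log2 fold change of 1.01 (SE 0.43, adjusted p = 0.97). It then had 15.2 and 26.0 CPM at 4 h, 19.1 and 35.8 at 6 h, and 12.4 and 25.2 at 8 h. All treated libraries were above the controls, while the spread within pairs grew after 2 h. The log2 fold change was 1.33 at 6 h (SE 0.43, adjusted p = 0.23) and 0.79 at 8 h (SE 0.43, adjusted p = 0.46). In exons it was 1.69 at 6 h (SE 0.42, adjusted p = 0.11), from 8.88 and 24.3 CPM against 4.86 and 5.37. Without replicate 2 of the treatment the intron value was 0.46 at 4 h, 0.81 at 6 h and 0.20 at 8 h, and the exon value at 6 h was 0.80.

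Kif26b had 4.68 and 4.76 intron CPM in the controls, 8.55 and 7.59 at 2 h, 7.96 and 9.98 at 4 h, 13.2 and 8.15 at 6 h, and 6.44 and 14.8 at 8 h. Each treated library was above both controls. The log2 fold changes of 0.77, 0.93, 1.18 and 1.17 had standard errors of 0.40, an unadjusted p under 0.05 at 6 and 8 h, and adjusted p of 0.25 at the lowest. Without replicate 2 of the 8 h treatment the value at 8 h was 0.46. Crtac1 had 9.95 and 13.5 CPM in the controls, and 21.5 and 17.5 at 6 h, a log2 fold change of 0.73 (SE 0.43). At 8 h its libraries were at 12.8 and 31.5 CPM, so that 1 lay within the control range, and the log2 fold change was 0.92 (SE 0.43, adjusted p = 0.41). Without replicate 2 of the 8 h treatment it was 0.14. Crtac1 did not reach an unadjusted p under 0.05 at any of the 4 times.

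St6gal1 had the smallest intron differences of the 6 genes at 4, 6 and 8 h and the smallest standard errors. Its introns were at 38.3 and 33.1 CPM in the controls, 47.4 and 40.8 at 2 h, 55.3 and 54.3 at 4 h, 61.0 and 43.9 at 6 h, and 53.9 and 65.3 at 8 h. All treated libraries were above both controls. The log2 fold changes were 0.30, 0.62, 0.55 and 0.74, with standard errors of 0.20, an unadjusted p under 0.05 from 4 h on and adjusted p of 0.19 at the lowest. Without replicate 1 of the 6 h treatment the value at 6 h was 0.30. In exons the log2 fold change at 6 h was 0.31 (adjusted p = 0.61), while the overlapping BC106179 had 1.15 (adjusted p = 0.27).

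Tenm1 had 0 intron counts in all 10 libraries of the time course and in EG1, against 61.8 to 195 CPM in wtSRCAP and cdSRCAP cells and 29.4 to 43.8 in LG1 and CGR8. A column of 0 beside exon counts is no measure of transcription here. Its exons were at 0.506 and 0.661 CPM in the controls, 1.51 and 1.29 at 6 h, and 1.22 and 2.10 at 8 h. All treated exon libraries were above both controls, from counts of 10 to 51 per library. At each single time, 3579 to 4176 of 19205 genes had both treated exon libraries above both controls. The log2 fold changes of Tenm1 exons were 1.25 at 6 h (SE 0.47, adjusted p = 0.23) and 1.5 at 8 h (SE 0.45, adjusted p = 0.19).

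In the exon columns of the time course, edgeR called 0 of 7 genes at any of the 4 times, where it called 0%, 0%, 0.0312% and 0.00521% of all genes higher. DESeq2 called 0 at 2 h, 1 at 4 h (Soga3), 2 at 6 h (Soga3 and Pqlc1) and 0 at 8 h, with 0.0104%, 0.355%, 1.73% and 0.815% of all genes. At an unadjusted p under 0.05, edgeR gave 1 of 7 higher at 2 h, 2 at 4 h, 4 at 6 h and 3 at 8 h, with background shares of 1.37%, 3.09%, 7.93% and 5.13%. Without replicate 1 of the 6 h treatment, 2 of 7 were called in exons by edgeR, Soga3 and Pqlc1, but so were 7.91% of all genes. In introns, both treated libraries were above both controls for 5 of the 6 genes at 2 h, 6 at 4 h, 6 at 6 h and 5 at 8 h, against 21.6%, 21.4%, 21% and 20.2% of all genes. The 4 trophoblast markers summed to 9.38 to 12.6 CPM in the SYAT controls and 17.6 to 22.9 in the 8 treated libraries, and the 5 fibroblast markers to 21.7 to 27.0 and 23.7 to 39.0. The 3 neural markers summed to 67.0 to 84.1 CPM in the controls and 75.9 to 94.1 in the treated libraries. The 5 primitive endoderm markers summed to 11.2 to 14.7 and 12.8 to 17.3 CPM, and the 8 ES cell markers to 1794 to 2249 and 1974 to 3109. Their part in the levels of the 7 genes was not tested.

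**Figure D3:**
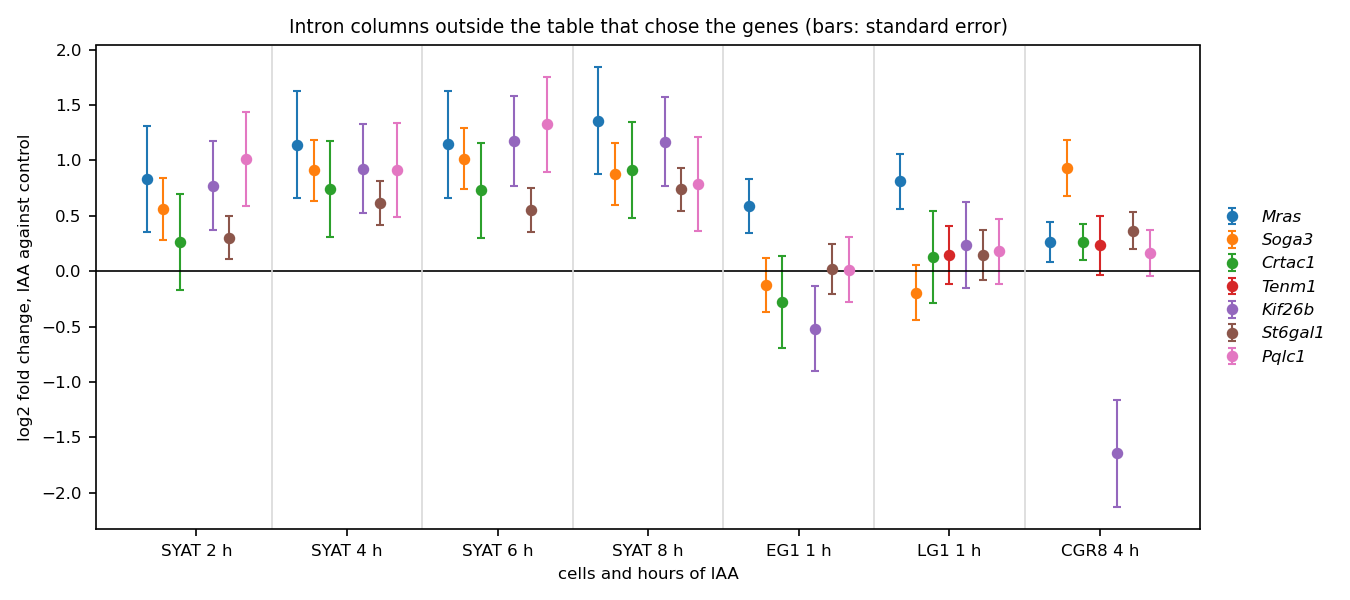
Log2 fold change of IAA against control in intron columns (y axis), with the standard error as a bar, for each gene in the 7 comparisons outside the wtSRCAP and cdSRCAP table (x axis). Points in the 4 SYAT comparisons lie above 0, those of EG1 and LG1 lie on both sides of 0, from -0.52 in Kif26b to 0.81 in Mras, and in CGR8 Soga3 is at 0.93 and Kif26b at -1.64.

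In sorted cells, where IAA lasted 1 h, Mras was the gene that differed in both phases. The thresholds here were those of the study for sorted cells, an unadjusted p under 0.05 and a log2 fold change over 0.25. Values are from fits without the replicate number as a block unless stated. In EG1 introns Mras was at 3.95 and 3.90 CPM in the controls and 5.23 and 6.60 after IAA, a log2 fold change of 0.59 (SE 0.24, adjusted p = 1). In LG1 introns it was at 6.46 and 7.42 CPM in the controls and 12.1 and 12.2 after IAA, a log2 fold change of 0.81 (SE 0.25, adjusted p = 1). The treated pair lay above the controls in both phases, as it did for 1430 of 17441 genes in EG1 and 2328 in LG1. Mras passed as 1 of 6 genes in EG1, where 0.39% of 17441 genes passed as higher, and as 1 of 7 in LG1, where 1.24% did.

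The call in EG1 was lost when any 1 of the 4 EG1 libraries was left out (log2 fold change 0.42 to 0.75), and the call in LG1 without LG1 control replicate 1 (0.71). With the replicate number as a block, the log2 fold change of Mras was 0.58 in EG1 and 0.82 in LG1. Mras exons, at 1.29 to 2.40 CPM, were 1.60 and 2.39 in IAA-treated EG1 cells against 1.29 and 1.38, and overlapped in LG1.

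**Figure D4:**
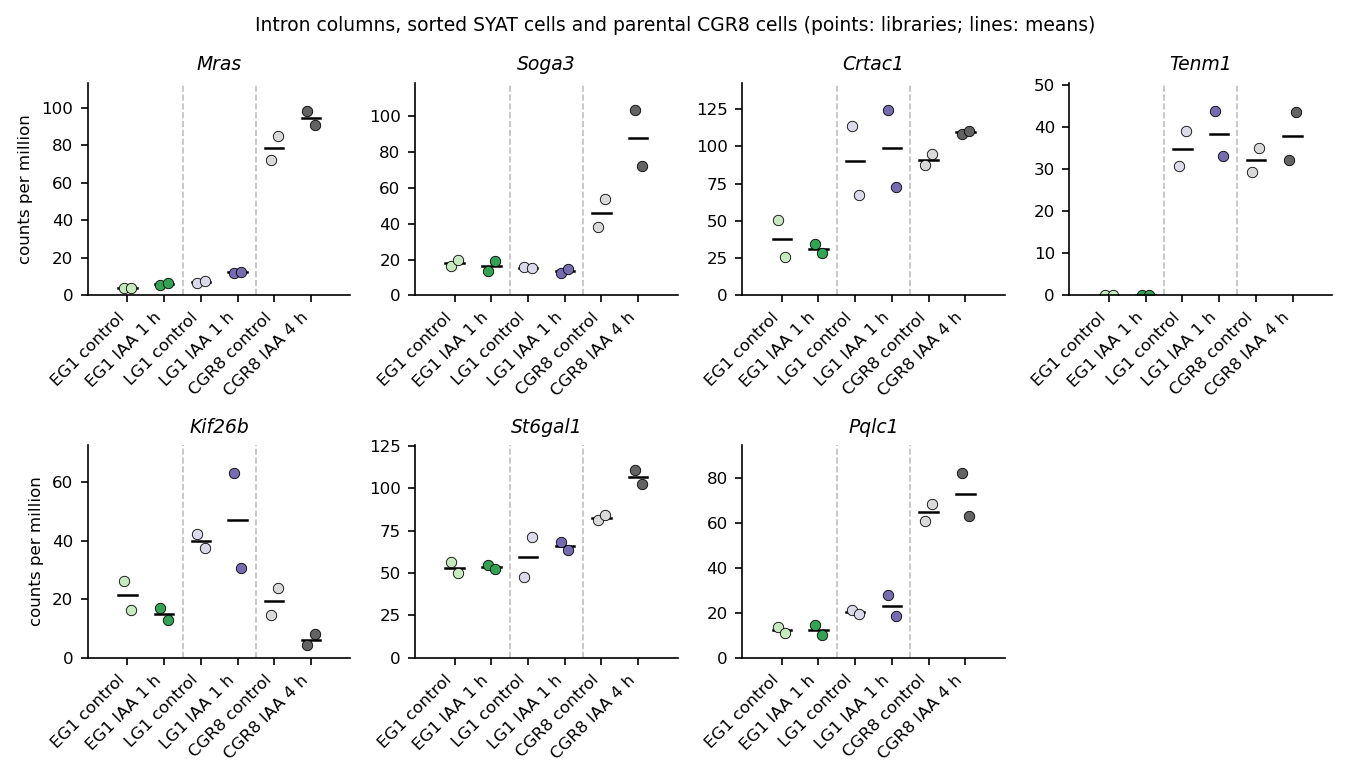
Intron CPM (linear axes from 0) in EG1 and LG1 cells with control or 1 h of IAA and in CGR8 cells with control or 4 h of IAA, 1 point per library and a line at the mean of 2; dashed lines part blocks whose levels are not comparable. Mras is higher with IAA in EG1 and LG1, Soga3 is higher and Kif26b lower with IAA in CGR8, and the remaining groups of the sorted cells mostly overlap.

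The other genes of the list did not pass in sorted introns. Most of their groups overlapped. In LG1, Crtac1 had 113 and 67.6 CPM in the controls and 125 and 72.9 after IAA, Kif26b had 42.3 and 37.4 against 63.1 and 30.8, and Tenm1 had 30.8 and 39.1 against 43.8 and 33.2. In Crtac1 the first replicate was far above the second with and without IAA. St6gal1 had 47.4 and 71.5 CPM in LG1 controls and 68.1 and 63.3 after IAA, and Pqlc1 21.4 and 19.6 against 27.9 and 18.4. Soga3 was the one gene of the list with both treated LG1 libraries below both controls, at 12.7 and 14.5 against 16.0 and 15. How many of all genes did so was not counted. Log2 fold changes of the listed genes other than Mras went down to -0.52 in EG1 (Kif26b) and to -0.19 in LG1 (Soga3). The median of the listed genes tested was -0.05 in EG1 and 0.14 in LG1, against 0 over all genes. In exons 0 of 7 passed in either phase with edgeR, and 0 with DESeq2, where 0.19% of genes in EG1 and 0.285% in LG1 passed as higher with edgeR, and 0.0571% and 0.133% with DESeq2. With the replicate block, Pqlc1 passed in LG1 exons (0.37), from 4.94 and 4.49 CPM in the controls and 6.79 and 5.50 after IAA. Fitted without the block it had 0.38 (SE 0.28) and did not pass. The responses in LG1 and EG1 were compared as an interaction, and no gene of the list passed the test: the largest difference was 0.76 in Kif26b (SE 0.55, adjusted p = 1), and Mras had 0.22 (SE 0.35). Intron columns of EG1 hold counts in genes without introns and those of LG1 almost none, which bears on this interaction.

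CGR8 cells, in which IAA has no degron to act on, asked what IAA does by itself. In CGR8 introns edgeR called 0 of 7 genes higher, as did DESeq2, with 0.0147% and 0.103% of 13634 genes called higher. At an unadjusted p under 0.05, 1 of 7 was higher (2.57% of all genes) and 1 lower (2.68%). Both treated libraries were above both controls for 4 of the 7, against 19.2% of all genes. The median of the 7 log2 fold changes was 0.26, against 0.01 over all genes.

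Soga3 was the gene that was higher in CGR8. Its introns were at 38.2 and 53.6 CPM in the controls and 103 and 72.5 after IAA, with both treated libraries above the controls, a log2 fold change of 0.93 (SE 0.25, adjusted p = 0.87). Without CGR8 control replicate 2 this value was 1.2 and passed both thresholds, as did 4.53% of all genes. The exons of Soga3 did not show it, at 33.0 and 30 CPM in the controls and 34.5 and 29.5 after IAA. In SYAT cells after the same 4 h the intron value was 0.91, and the difference between the lines was not tested because the tables were counted separately.

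Kif26b was the gene that was lower, from 14.7 and 23.7 intron CPM in CGR8 controls to 4.15 and 8.09 after IAA, a log2 fold change of -1.64 (SE 0.48, adjusted p = 0.91). Without CGR8 control replicate 1 it was -1.94 and passed as lower (adjusted p = 0.021), where 0.459% of all genes did. After 4 h in SYAT cells the intron value was 0.93. The Kif26b exon groups in CGR8 overlapped, with a log2 fold change of -0.22 (SE 0.51). Over the alternative fits, the Kif26b intron value in CGR8 ran from -2.22 to -0.50. The other 5 genes had log2 fold changes in CGR8 introns of 0.37 in St6gal1, 0.26 in Mras, 0.26 in Crtac1, 0.23 in Tenm1 and 0.16 in Pqlc1, with adjusted p of at least 0.92. Mras introns in CGR8 were at 72.2 and 85.2 CPM in the controls and 98.3 and 91.0 after IAA, those of Crtac1 at 87.6 and 94.6 against 109 and 110.2, and those of St6gal1 at 81.2 and 84.3 against 111 and 103. For these 3 genes both treated libraries were above both controls, while Tenm1 and Pqlc1 overlapped. Mras was the gene with an unadjusted p under 0.05 in CGR8 exons, 15.9 and 19.4 CPM in the controls against 25.8 and 22.2, a log2 fold change of 0.44 (SE 0.18, adjusted p = 0.54), where 5.04% of genes were higher at that level. The lowest exon value was -0.54 in Tenm1 (SE 0.66).

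The base level of Mras differed widely between tables. Its exons were at 15.9 to 25.8 CPM in CGR8, 1.77 to 5.79 in the SYAT time course, 1.29 to 2.40 in sorted cells and 8.03 to 41.8 in wtSRCAP and cdSRCAP cells. The 4 tables are separate experiments, so line, treatment and batch cannot be told apart in this comparison.

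The relatives of the 7 genes, a list of 37 set by family, did not move as one group. At 6 h in SYAT introns, 35 were tested, of which 6 were higher (6.53% of all genes) and 5 lower (7.98%) at an unadjusted p under 0.05, Nras among the lower, and 0 passed the adjusted threshold with edgeR, with a median log2 fold change of 0.12. The value of Nras, counted here and in its family below, rests on an intron column at 0 in both 6 h libraries. By family, 2 of 10 RAS and SHOC2 complex genes were higher and 2 lower, 1 of 2 genes of the Soga3 family was higher, 1 of 6 teneurins and latrophilins was higher, 2 of 4 in the group of Kif26a and WNT5A-ROR signalling were higher, 1 of 9 sialylation genes was lower and 2 of 4 PQ-loop genes were lower. The 6 relatives with the smallest p were Ctns, Rras2, Mtcl1, Nras, Adgrl2 and Pqlc2. Ctns, which encodes the lysosomal cystine exporter with the same PQ-loop fold as Pqlc1, went the other way from Pqlc1. It had 22.3 and 22.8 intron CPM in the controls, 14.1 and 14.6 at 2 h, 10.2 and 9.13 at 4 h, 8.52 and 7.61 at 6 h, and 10.2 and 8.43 at 8 h. The log2 fold change at 6 h was -1.48 (SE 0.18, adjusted p = 0.11). In exons Ctns fell by 1.43 on the log2 scale at 6 h (adjusted p = 0.045), from 17.6 and 18.7 CPM to 7.20 and 6.26, the one relative to pass both thresholds, where 0.0364% of all genes were called lower. In CGR8 cells the Ctns value was -0.33 in introns, with an unadjusted p above 0.05.

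Pqlc2, a lysosomal exporter of basic amino acids with the same fold, was also lower at 6 h, 9.97 and 12.6 against 19.7 and 15.3 CPM (-0.63, adjusted p = 0.32). Rras2, a RAS-family GTPase like Mras, was higher at 0.84 (adjusted p = 0.13), from 61.7 and 57.0 CPM to 109 and 104. Nras had 1005 and 914 intron counts in the controls and 0 in both 6 h libraries, with 0 in 1 of 2 libraries at 4 h and at 8 h, while its exons had a log2 fold change of -0.12, so no fold is given for the intron column. Mtcl1, the relative of Soga3, was higher at 0.72 (adjusted p = 0.22). Adgrl2, a latrophilin that binds teneurins such as Tenm1, was higher at 0.55 (adjusted p = 0.27). In CGR8 introns, 0 of 33 relatives tested were higher and 1 lower at an unadjusted p under 0.05, against 2.57% and 2.68% of all genes.

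The 6 genes with intron counts in all tables varied together in the wtSRCAP and cdSRCAP table and in the time course. After centring log2 CPM within each table, the median Pearson r of their 15 pairs was 0.885 over the 8 wtSRCAP and cdSRCAP libraries and 0.795 over the 10 of the time course. Over the 8 sorted libraries it was 0.552 when EG1 and LG1 were centred together, but their intron columns are not comparable, and with the phases centred apart, a choice made after seeing the data, it was -0.125 (-0.829 to 0.859). With the phases apart it was 0.703 over all 30 libraries and 0.507 over the 22 that are not wtSRCAP or cdSRCAP cells, against 0.686 and 0.472 with them together. These points share libraries and treatments, and the wtSRCAP and cdSRCAP table chose the genes. The r of other gene pairs was not computed, so these medians have no background value.

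The genes most alike over 30 libraries with the phases apart, out of 10725, were Epas1 for Mras (r = 0.937) and for Soga3 (0.883), Fry for Crtac1 (0.953), Ccdc141 for Kif26b (0.827), Sgms2 for St6gal1 (0.855) and Tnrc6c for Pqlc1 (0.863). With the phases centred together they were Jam2 for Mras (0.877) and Sh3d19 for St6gal1 (0.857), and for the other 4 the gene named above. Over the 22 libraries with the phases apart, Epas1 for Mras (0.919) and Fry for Crtac1 (0.937) were again the most alike, and the other 4 genes had another partner.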

How the data were processed

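Nuclear RNA-seq of 30 libraries was analysed. Per the study's methods, the authors aligned reads to mm10 with STAR, counted them with featureCounts on GENCODE exons and on introns (gene bodies without exons), and deposited whole-number counts per gene, without normalization. The submitters' processing notes also name SAMtools 1.10, Picard and DESeq2. Tables of the authors' own comparisons (fold changes and p-values) were deposited too and not used. From the deposited counts, 1 model per table and column was fitted in R 4.3.3 with edgeR 4.0.16 (TMM, filterByExpr with a minimum count of 10 and total of 15, quasi-likelihood test, Benjamini-Hochberg over all genes tested). CPM are TMM-scaled. Symbols came from GENCODE vM21 (55141 of 55401 identifiers matched). Per the study's methods, replicates were biological duplicates, grown and treated separately.

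The members and the lists of relatives and markers were chosen with earlier results of these data known. Named genes were the members, overlapping genes, Srcap, the 6 relatives with the smallest p under 0.05 at 6 h in SYAT introns, and for each member the gene with the highest Pearson correlation (introns, prior count 2). Ctns in exons was singled out after its value was seen. Same-numbered sorted libraries deviated together, with correlations of 0.141 to 0.638 in introns and 0.372 to 0.586 in exons in all 6 pairs of groups. The numbers may thus pair them, but the main fits carry no block. Fits with the replicate number as a block are given as alternatives. Alternatives were DESeq2 1.42.0 with and without shrinkage, RLE factors, other filters, the replicate block, single libraries left out, only the groups compared, intron counts after subtracting exon counts, and, chosen after seeing the data, DESeq2 with the block and correlations with EG1 and LG1 centred apart.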

Additional observations from a re-analysis of the deposited data

How the results depend on the processing

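With 2 libraries a group, depth and spread between libraries limit what can be called. Each count here is of genes of the list called higher, with the share of all genes called higher by the same fit in parentheses. In SYAT introns, where edgeR called 0 at each time, DESeq2 called 2 at 6 h (1.68%) and 1 at 8 h (1.25%), and with shrinkage 2 (1.37%) and 1 (0.999%). DESeq2 with the replicate block, chosen after seeing the data, called 1 at 2 h (0.418%, Pqlc1), 2 at 4 h (1.5%, Mras and Soga3), 3 at 6 h (3.1%, with Pqlc1) and 3 at 8 h (2.56%, Mras, Soga3 and St6gal1). In SYAT exons, where edgeR also called 0, DESeq2 called 1 at 4 h (0.355%) and 2 at 6 h (1.73%), and with shrinkage 1 (0.34%) and 2 (1.65%). DESeq2 with the block called 1 at 4 h (1.11%), 3 at 6 h (4.23%, Kif26b, Pqlc1 and Soga3) and 2 at 8 h (1.71%, Mras and Soga3), edgeR with the block 2 at 6 h (1.69%) and 1 at 8 h (0.906%, Mras), and edgeR without the filter on low counts 1 at 4 h (0.114%), 2 at 6 h (1.37%) and 1 at 8 h (0.527%). With single libraries left out, the count at 6 h in exons ran from 0 to 2 (7.91%, without IAA 6 h replicate 1). In the time course 8 of 10 pairs of groups had a correlation over 0.1 between same-numbered intron libraries (0.001 to 0.639), and in CGR8 the correlation was 0.06. The labels number the replicates without saying that they pair samples, so the time course is given with and without the block.

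In EG1 introns the count fell from 1 to 0 without the filter (0.455%), with only the 2 groups compared (0.255%), and with each library left out. In LG1 introns the log2 fold change of Mras ran from 0.71 to 0.91 with libraries left out. In LG1 exons the count rose from 0 to 1 (Pqlc1, 1.61%) with the replicate block. In CGR8 introns it was 1 without the filter (0.317%) and ran from 0 to 1 with libraries left out (Soga3, 4.53%, without control replicate 2). Called lower in CGR8 were Kif26b introns without control replicate 1 (0.459% of all genes lower) and Pqlc1 exons without control replicate 2 (4.11%). In CGR8 introns Pqlc1 ran from -0.0354 to 0.34 and Tenm1 from -0.0056 to 0.4387. With edgeR, the replicate block changed no other call of the list. The median of the 7 genes from wtSRCAP control to IAA-treated cdSRCAP cells was 1.39 in exons and 1.99 to 2.09 in introns with single libraries left out. Over all genes of the list, 60 of 406 alternative values in sorted cells, 8 of 640 in the time course and 7 of 153 in CGR8 changed sign, none of them past a threshold. The cause of these changes was not tested.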
